A study of Homo sapiens with 4 samples.

Results

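The mitosis, spindle and kinetochore genes are 55 of 77973 genes in the deposited gene table. They were chosen by gene symbol from general knowledge of cell division, with earlier results of these data known, so the list is not a blind choice. All 55 were matched, and 54 of them averaged 5 or more reads over the libraries, as did 13789 genes in all. AURKB, with 10, 1, 2 and 0 reads, averaged less and was not tested.

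A dividing cell builds these proteins shortly before mitosis. Cyclin B with the kinase CDK1 drives entry into mitosis, condensins and topoisomerase II shape the chromosomes, kinetochores tie them to spindle microtubules, the spindle checkpoint delays separation until all are attached, and kinesins and midzone proteins separate and divide the cell. Neurons have left the cell cycle and normally keep these genes silent, so in a neuronal culture their RNA is usually read as a mark of cells that still divide. Many of their promoters are repressed in resting cells by the DREAM complex, which binds a short element called the cell cycle homology region. 5-Azacytidine is a cytidine analogue that is built into nucleic acids and depletes DNA methyltransferases. TDP-43 is an RNA-binding protein that regulates splicing.

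All libraries came from derivatives of KOLF2.1J, a widely shared human pluripotent line, here carrying dCas9-BFP-KRAB for CRISPR interference (CRISPRi) and NGN2 under a doxycycline-inducible promoter, and turned into cortical neurons (i3N). Stable pools were selected with puromycin after lentiviral delivery of a guide RNA that either targeted TDP-43 or was non-targeting, so all groups carry CRISPRi, NGN2 and a guide. Full-length complementary DNA was sequenced on the PacBio platform (Iso-Seq) in 4 groups of 1 library each: a control with the non-targeting guide, a TDP-43 knockdown, the non-targeting guide with 5 µM 5-azacytidine for 72 hours, and the knockdown with azacytidine. Harvest was on day 12 or day 15 per the labels, and which of them applies to these libraries was not given. With 1 library per group no difference below has a replicate check, and a test on the reads of a pair of libraries compares those libraries, not the conditions.

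The libraries held between 466337 and 767621 reads assigned to genes. The targeted gene, TARDBP, had 104 reads without any treatment, 72 under the knockdown, 73 under azacytidine and 43 under both, and 4 read numbers given in a row below follow that order. Scaled to library size, TARDBP was at 62.6% of its control without azacytidine and 60.1% with it (adjusted p 0.0213 and 0.0738, exact binomial test). All 15 neuron markers examined were detected in all libraries, among them MAP2 (540, 761, 319 and 162 reads) and DCX (247, 362, 250 and 244 reads), as the cell type label has it. Of pluripotent cell markers, POU5F1 had 2, 0, 2 and 0 reads and NANOG 0, 0, 2 and 0 reads, while LIN28A had 129, 200, 99 and 121 reads. Neural progenitor markers were also present in the libraries without azacytidine, with 290 and 313 reads of PAX6.

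RNA of the mitosis genes was abundant in both cultures without azacytidine and scarce in both cultures with it. Their summed reads were 3368 in the control library, 4041 in the knockdown library, 500 with azacytidine and 387 with both treatments. Scaled to effective library size (total reads times the trimmed mean of M-values factor, TMM) these sums were 5433, 5897, 1012 and 798 CPM. The level left under azacytidine was 18.6% of the control without the knockdown and 13.5% with it. In bulk RNA, fewer dividing cells and less of this RNA per cell cannot be told apart.

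**Figure D1:**
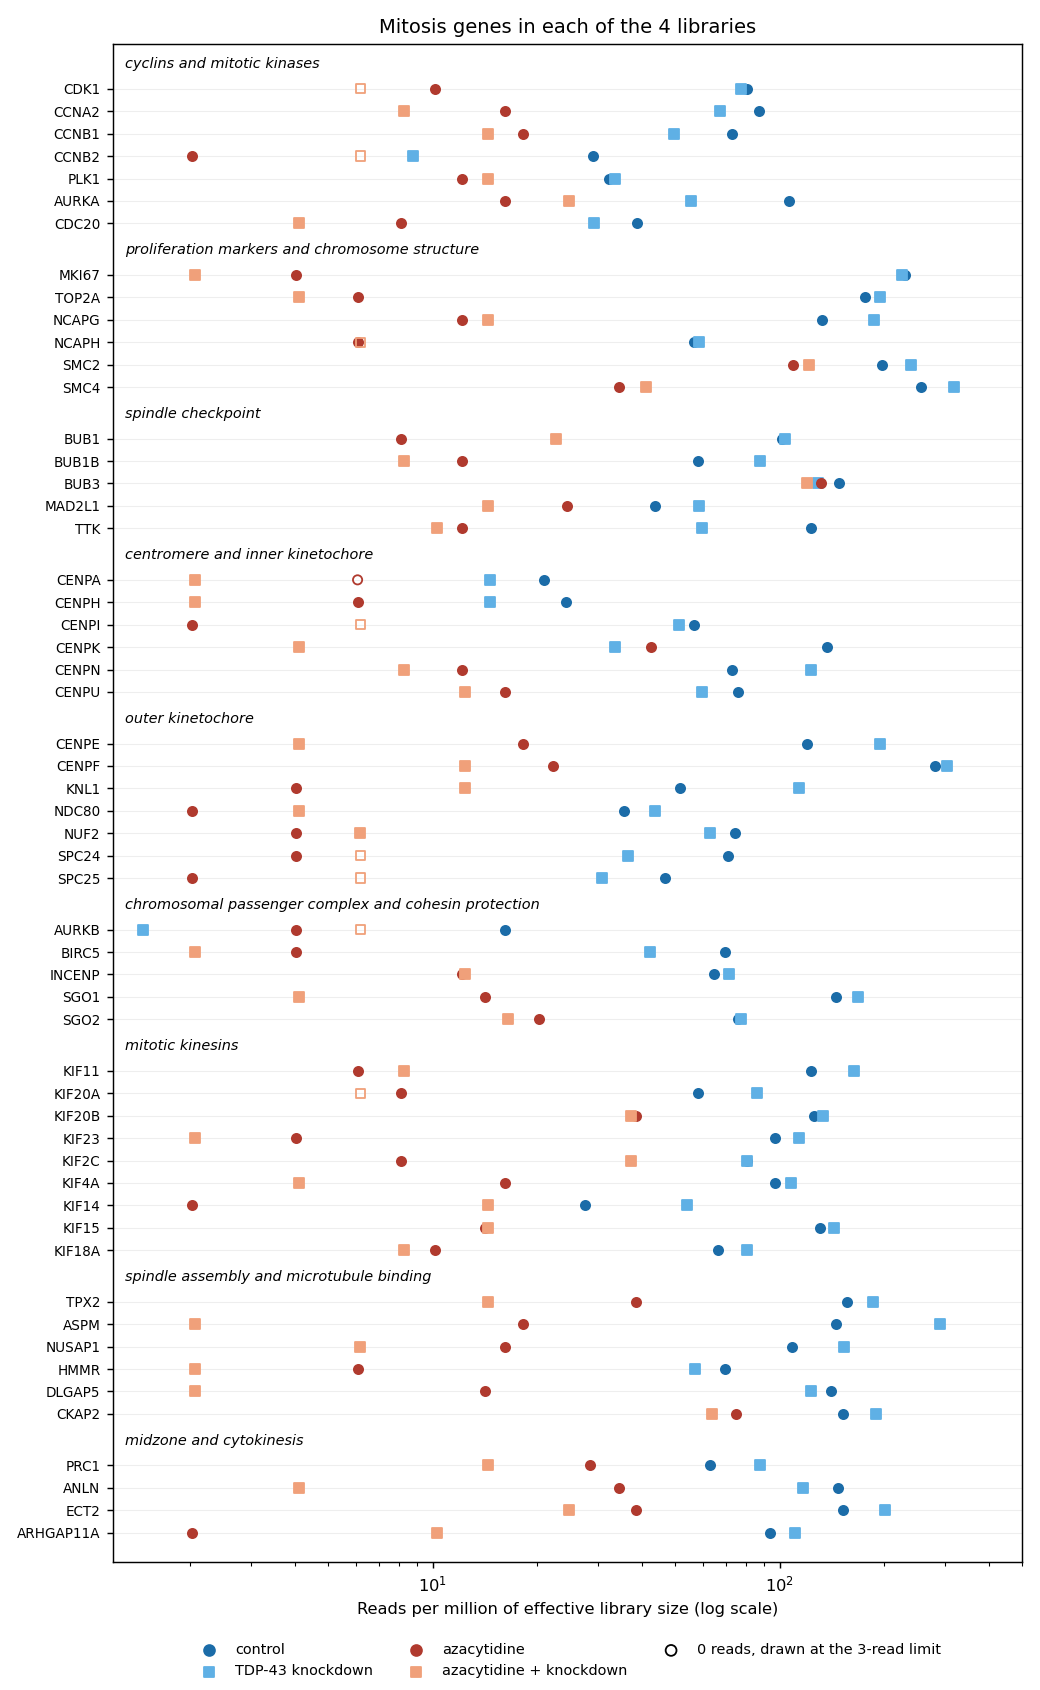
Level in CPM of effective library size (log axis) of the 55 mitosis genes, grouped by role, in each of the 4 libraries, 1 point per library. Open symbols are libraries with 0 reads, drawn at the limit of 3 reads. For 52 of the 54 tested genes both azacytidine points (red and orange) lie left of both points without it (blue), and BUB3 and CENPK are the exceptions.

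Of the 54 tested members, 49 were called lower and 0 higher in the azacytidine library than in the control, where 9.98% of all tested genes were called lower and 6.58% higher. In the combined library against the knockdown library 48 were called lower and 0 higher, against 16.4% and 9.11% of all tested genes. A call needed an adjusted p under 0.05 by a two-sided exact binomial test of a gene's reads, with Benjamini-Hochberg adjustment over all tested genes, and at least a 2-fold ratio. These pairs share no library, and 47 members were called lower in both of them, against 6.17% of all tested genes. The median log2 ratio of the members (pseudocount 0.5) was -2.86 without the knockdown and -3.17 with it, where the medians of all tested genes were 0.06 and -0.09. With counts under 3 reads raised to 3 reads, the members' medians were -2.71 and -3.02. Both azacytidine libraries lay below both others for 52 of 54 members, against 27.9% of all tested genes.

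**Figure D2:**
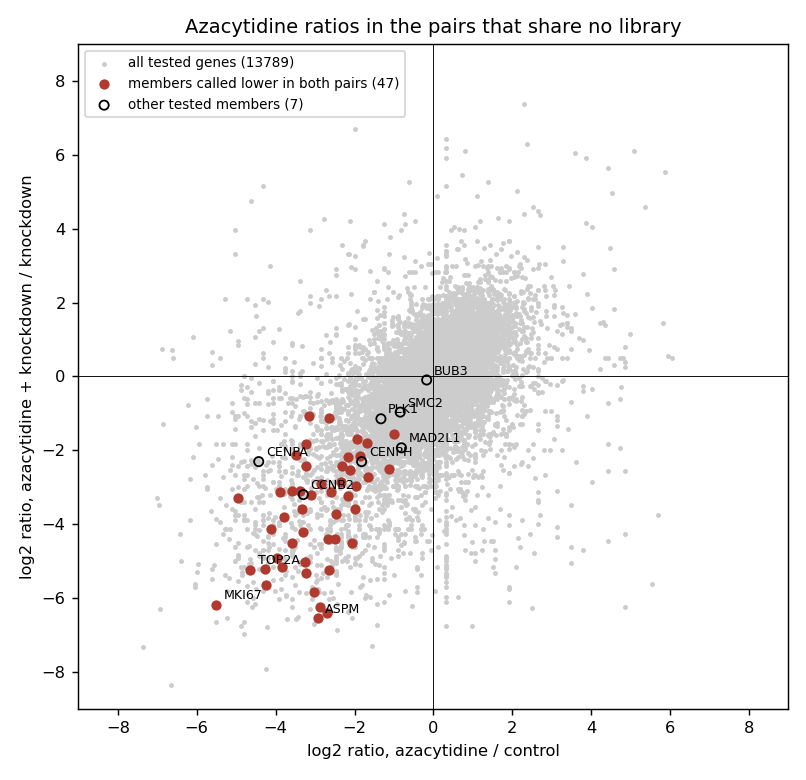
Log2 ratios under azacytidine without the knockdown (x axis) and with it (y axis), for all 13789 tested genes in grey and the 54 tested mitosis genes in front. Filled red points are the 47 members called lower in both pairs and open circles the other 7, which are named. All 54 members have negative ratios in both pairs, from BUB3 near the origin to MKI67 and ASPM.

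The proliferation markers had the lowest ratios that both pairs shared. MKI67 (ENSG00000148773.14, chromosome 10, 128096659 to 128126423, minus strand, hg38), the gene of the Ki-67 antigen that coats mitotic chromosomes, had 142, 154, 2 and 1 reads. Its log2 ratios were -5.51 (95% exact interval -8.88 to -3.94) without the knockdown and -6.19 (-12.08 to -4.27) with it, and its adjusted p-values in the exact binomial test were 2.5e-30 and 4.36e-32. TOP2A (ENSG00000131747.15, chromosome 17, 40388525 to 40417896, minus strand), the topoisomerase that untangles sister DNA, had 109, 133, 3 and 2 reads, with log2 ratios of -4.64 and -5.24. Both genes were thus close to the limit of detection in either azacytidine library.

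The promoters of these genes are shown because the members moved together and because their promoters share short elements. Promoter sequences of 300 bases (250 before to 50 after the start) are those of RefSeq, build GRCh38.p14, which matched 48 of the 55 members with 54 promoters; AURKA, BUB3, TTK, CENPH, KNL1, BIRC5 and TPX2 were not matched. Capitals mark TTTGAA, the letters of the cell cycle homology region, and CCAAT, the letters of the NF-Y box, each on either strand, so that TTCAAA and ATTGG are the same letters read from the other strand. MKI67 (chr10:128126374-128126673 on the minus strand), TOP2A (chr17:40417847-40418146 on the minus strand), KIF23 (chr15:69414099-69414398 on the plus strand) and KIF11 (chr10:92592880-92593179 on the plus strand) were called lower in both pairs and have among the largest falls of the members with TTTGAA. MAD2L1 (chr4:120066799-120067098 on the minus strand) and SMC2 (chr9:104094059-104094358 on the plus strand) hold TTTGAA too and were not called in both pairs.
MKI67: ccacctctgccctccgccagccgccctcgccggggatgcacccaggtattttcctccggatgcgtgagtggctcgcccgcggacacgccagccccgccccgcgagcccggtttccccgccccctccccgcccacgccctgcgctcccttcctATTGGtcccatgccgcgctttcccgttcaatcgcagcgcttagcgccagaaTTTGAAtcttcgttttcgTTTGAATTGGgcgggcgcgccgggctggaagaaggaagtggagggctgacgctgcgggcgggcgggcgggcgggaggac
TOP2A: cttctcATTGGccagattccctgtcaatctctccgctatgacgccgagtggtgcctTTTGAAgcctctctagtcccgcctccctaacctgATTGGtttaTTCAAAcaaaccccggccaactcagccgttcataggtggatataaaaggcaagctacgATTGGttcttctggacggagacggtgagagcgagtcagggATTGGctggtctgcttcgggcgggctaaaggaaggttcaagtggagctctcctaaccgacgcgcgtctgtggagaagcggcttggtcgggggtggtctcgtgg
KIF23: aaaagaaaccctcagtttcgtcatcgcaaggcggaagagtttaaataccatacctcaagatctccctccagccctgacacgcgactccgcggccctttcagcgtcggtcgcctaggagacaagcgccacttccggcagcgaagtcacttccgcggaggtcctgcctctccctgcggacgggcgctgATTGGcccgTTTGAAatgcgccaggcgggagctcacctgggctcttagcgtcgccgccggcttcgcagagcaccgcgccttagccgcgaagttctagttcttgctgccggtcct
KIF11: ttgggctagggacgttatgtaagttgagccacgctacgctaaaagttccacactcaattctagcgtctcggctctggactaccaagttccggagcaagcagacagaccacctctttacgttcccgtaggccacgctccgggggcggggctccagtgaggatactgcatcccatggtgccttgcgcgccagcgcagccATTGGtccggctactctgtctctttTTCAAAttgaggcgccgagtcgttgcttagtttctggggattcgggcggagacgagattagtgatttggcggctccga
MAD2L1: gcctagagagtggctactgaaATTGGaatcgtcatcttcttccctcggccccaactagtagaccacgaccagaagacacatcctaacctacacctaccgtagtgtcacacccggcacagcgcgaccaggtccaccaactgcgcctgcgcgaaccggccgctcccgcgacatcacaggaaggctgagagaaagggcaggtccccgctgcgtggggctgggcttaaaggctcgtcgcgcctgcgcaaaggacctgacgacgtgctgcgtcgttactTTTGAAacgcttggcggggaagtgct
SMC2: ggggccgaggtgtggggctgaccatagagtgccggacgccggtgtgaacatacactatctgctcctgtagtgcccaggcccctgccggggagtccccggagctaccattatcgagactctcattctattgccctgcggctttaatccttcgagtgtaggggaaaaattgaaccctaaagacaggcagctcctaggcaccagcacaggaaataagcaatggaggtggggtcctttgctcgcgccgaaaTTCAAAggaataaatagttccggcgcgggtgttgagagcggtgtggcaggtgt
In MKI67 the motifs overlap, in the run TTTGAATTGG, which was the case in 1 member promoter.

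TTTGAA was in 34 of the 54 member promoters (63.0%), against 15.2% of the 35116 promoters of that length in the table. Its matches lay close to the start in the members, with a median position of -28 over 47 matches, against -125 over 6238 matches in all promoters. Within 60 bases before to 10 after the start, 40.7% of member promoters held it, against 3.61% of all. CCAAT was in 70.4% of member promoters and 34.6% of all promoters, and both motifs together were in 46.3% and 5.90%. Of the S phase genes below, 0 of 23 promoters held TTTGAA, although 73.9% held CCAAT. A match is a run of letters and not a shown binding site.

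Members with and without the motif both fell under azacytidine. The 32 tested members with TTTGAA had median azacytidine log2 ratios of -2.90 and -3.23 without and with the knockdown, and 27 of them were called lower in both pairs. The 15 tested members whose listed promoters lack it had medians of -2.69 and -2.87, and 15 were called. Over all tested genes, the 1481 with the motif had medians of -0.18 and -0.39 and the 8878 without it 0.09 and -0.04. These are counts and medians side by side, and the difference between members with and without the motif was not tested.

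The cyclins and mitotic kinases retained 18.6% of their summed level under azacytidine without the knockdown and 20.6% with it, and 5 of 7 were called lower in both pairs. CDK1 (ENSG00000170312.17, chromosome 10, 60778331 to 60794852, plus strand), the kinase that triggers mitosis, had 50, 53, 5 and 0 reads, and was at least 12.5-fold lower in the combined library than in the knockdown library, from the 3-read limit. CCNA2, the cyclin of S phase and early mitosis, had 54, 46, 8 and 4 reads. CCNB1, a cyclin partner of CDK1 at mitotic entry, had 45, 34, 9 and 7 reads. Both cyclins fell in both pairs. Both azacytidine libraries lay below both others for them, as for 27.9% of all tested genes. CDC20, which activates the ubiquitin ligase that ends mitosis, had 24, 20, 4 and 2 reads. AURKA, the kinase of the spindle poles, had 66, 38, 8 and 12 reads and fell in both pairs, with log2 ratios of -2.64 and -1.12. CCNB2, the other B-type cyclin, had 18, 6, 1 and 0 reads, and was called lower only in the pair without the knockdown. PLK1, a kinase of spindle poles and kinetochores, had 20, 23, 6 and 7 reads and was called in neither pair, with log2 ratios of -1.33 and -1.15.

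Chromosome structure genes other than the markers split. The condensin subunits NCAPG (82, 128, 6 and 7 reads) and NCAPH (35, 40, 3 and 0 reads) fell in both pairs. SMC4, the condensin ATPase, had 158, 218, 17 and 20 reads and also fell in both, with log2 ratios of -2.85 and -2.91. SMC2, its partner ATPase, had 122, 164, 54 and 59 reads. The SMC2 ratios of -0.84 and -0.97 had adjusted p-values of 0.00256 and 4.17e-05 in the exact binomial test, but did not reach 2-fold. The ratios of SMC2 lay above those of SMC4, the other ATPase of the same ring, in both pairs.

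The spindle checkpoint genes kept the largest share of their summed level among the roles, 39.7% and 40.1%, and 3 of 5 were called lower in both pairs. BUB1, a checkpoint kinase at the kinetochore, had 63, 71, 4 and 11 reads, and BUB1B, which blocks CDC20, had 36, 60, 6 and 4 reads. TTK, the kinase that starts checkpoint signalling, had 76, 41, 6 and 5 reads. These 3 kinases or kinase-like proteins fell in both pairs. MAD2L1, which also binds CDC20, had 27, 40, 12 and 7 reads and was called lower only in the pair with the knockdown. BUB3, a partner of BUB1 and BUB1B, had 92, 88, 65 and 58 reads, with log2 ratios of -0.17 and -0.10 (adjusted p 0.688 and 0.857, exact binomial test). BUB3 alone gave 65 of the 93 and 58 of the 85 checkpoint reads left in the azacytidine libraries.

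At the centromere and inner kinetochore 4 of 6 members were called lower in both pairs, and 20.4% and 9.75% of the summed level remained. CENPI, a subunit of the inner kinetochore network, had 35, 35, 1 and 0 reads. CENPN, which reads the centromeric nucleosome, had 45, 84, 6 and 4 reads, and CENPU had 47, 41, 8 and 6 reads. These 3 genes and CENPK, described with the knockdown below, were called lower in both pairs. For CENPK the call without the knockdown was lost from the reads assigned to its transcripts (12 and 5 reads, a log2 ratio of -0.98, adjusted p 0.543 in the exact binomial test) and the call with it remained (17 and 1 reads, -3.08, adjusted p 0.0101). CENPA, the centromeric histone H3 variant, had 13, 10, 0 and 1 reads, and CENPH had 15, 10, 3 and 1 reads. CENPA was called lower only in the pair without the knockdown and CENPH in neither.

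All 7 outer kinetochore genes were called lower in both pairs, and their summed level under azacytidine, 8.36% and 4.99% of its control, was the smallest share of the 9 roles. CENPF, a large protein of the kinetochore corona, had 173, 208, 11 and 6 reads, and CENPE, the kinetochore kinesin, had 74, 133, 9 and 2 reads. The microtubule-binding NDC80 complex was low in all its subunits. NDC80 had 22, 30, 1 and 2 reads, NUF2 46, 43, 2 and 3, SPC24 44, 25, 2 and 0, and SPC25 29, 21, 1 and 0. KNL1, the scaffold that recruits the checkpoint, had 32, 78, 2 and 6 reads.

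The passenger complex and the protectors of cohesin fell in both pairs for 4 of 4 tested members, and AURKB was not tested. BIRC5, the gene of survivin, had 43, 29, 2 and 1 reads, and INCENP, the scaffold of the complex, had 40, 49, 6 and 6 reads. SGO1, which shields centromeric cohesin, had 90, 115, 7 and 2 reads, and SGO2 had 47, 53, 10 and 8 reads. Their summed level was at 14.7% and 9.73% of the respective controls.

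All 9 mitotic kinesins were called lower in both pairs, whereas 0 of 11 kinesins of neuronal transport were, with 1 called higher without the knockdown and 1 lower with it. KIF23, which bundles midzone microtubules, had 60, 78, 2 and 1 reads, and KIF11, which pushes spindle poles apart, had 76, 112, 3 and 4 reads. KIF20A had 36, 59, 4 and 0 reads and was at least 13.9-fold lower in the combined library than in the knockdown library. KIF4A (60, 74, 8 and 2 reads), KIF14 (17, 37, 1 and 7 reads), KIF15 (81, 98, 7 and 7 reads) and KIF18A (41, 55, 5 and 4 reads) did not overlap between cultures with and without azacytidine. Both azacytidine libraries lay below both others for 52 members and for 27.9% of all tested genes, so this does not single these kinesins out. KIF20B kept more, with 78, 91, 19 and 18 reads. KIF2C, which depolymerizes microtubules at centromeres, had 50, 55, 4 and 18 reads. Among the transport kinesins, KIF1A had 221, 216, 258 and 267 reads and KIF5A 100, 147, 111 and 158 reads. The median azacytidine log2 ratio of the 11 was 0.18 without the knockdown, where 3 were negative. With the knockdown it was -0.32, where 6 were negative and the lowest was -2.63. The summed level of the transport kinesins was 113% of its control under azacytidine without the knockdown and 84.3% with it.

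Spindle assembly genes fell in both pairs for 6 of 6, and midzone and cytokinesis genes for 4 of 4. TPX2, which activates AURKA on the spindle, had 97, 127, 19 and 7 reads, and ASPM, a spindle pole protein of neural progenitors, had 90, 198, 9 and 1 reads. NUSAP1 had 67, 105, 8 and 3 reads, HMMR 43, 39, 3 and 1, and DLGAP5 87, 84, 7 and 1. CKAP2 was the least lowered of these, with 94, 130, 37 and 31 reads and log2 ratios of -1.01 and -1.55. At the midzone, PRC1, which cross-links antiparallel microtubules, had 39, 60, 14 and 7 reads, and ECT2, which activates RhoA for the furrow, had 94, 138, 19 and 12 reads. ANLN, the furrow scaffold anillin, had 91, 80, 17 and 2 reads, and ARHGAP11A had 58, 76, 1 and 5 reads. The last of these lies opposite its divergent neighbour ARHGAP11A-DT, which overlaps it by 256 bases and had 12, 53, 40 and 10 reads. In all, 37 members are overlapped by another gene, and the use of strand in counting was not given in the sources used here.

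Other cell cycle genes fell less uniformly. For each list below, 6.17% is the share of all tested genes called lower in both pairs. Of 89 further mitotic genes, 84 were tested, and 40 were called lower and 0 higher in both pairs. DEPDC1 (52, 88, 1 and 0 reads) and CDCA2 (68, 104, 1 and 3 reads) were among the lowest. In the pair with the knockdown 2 of these genes were called higher, where 9.11% of all tested genes were. Of 17 S phase genes 8 were called lower in both pairs, led by RRM2, a subunit of ribonucleotide reductase, with 79, 86, 3 and 2 reads, and by UHRF1, which brings DNA methyltransferase to replicated DNA, with 100, 147, 8 and 2 reads. PCNA, the replication clamp, had 27, 21, 9 and 9 reads and was not called in both pairs. Of 16 tested cell cycle transcription factors 1 was called higher in the pair with the knockdown and 4 were called lower in both pairs. They were E2F7 (36, 77, 1 and 1 reads), MYBL2 (53, 45, 4 and 2), E2F2 (30, 28, 3 and 0) and FOXM1 (50, 38, 6 and 1), the last with MYBL2 a known activator of mitotic genes. Of the cyclin-dependent kinase inhibitors 3 were tested and 0 were called in both pairs. Without the knockdown 1 of them was called higher, where 6.58% of all tested genes were, and the highest log2 ratio was 1.85. With the knockdown 0 were called, and the highest log2 ratio was 1.72. CDKN1A had 14, 16, 14 and 11 reads.

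Most tested markers of neural progenitors fell with the mitosis genes. Of 14 such markers 10 were tested and 7 were called lower in both azacytidine pairs: PAX6 had 290, 313, 3 and 4 reads, SOX1 41, 36, 0 and 0, and SLC1A3 29, 24, 0 and 0. The list's summed level was 1097, 1004, 261 and 188 CPM. PAX6 weighed heavily in it, as the list's summed reads were 680, 688, 129 and 91. The log2 ratio was positive for 1 of the 10 tested markers without the knockdown and for 2 with it. NES (64, 53, 36 and 42 reads) and SOX2 (30, 35, 18 and 8 reads) were not called in both pairs. The summed level of the 15 neuron markers ranged from 3936 to 4668 CPM, with RBFOX3, the gene of the neuronal nuclear antigen NeuN, called higher in both pairs (35, 39, 90 and 131 reads). Without the knockdown it was the only neuron marker called, while with the knockdown GAP43 was also called higher, and MAP2 and NEFL were called lower, with log2 ratios of -1.73 and -1.15. Of 10 pluripotent cell markers 4 were tested and 2, SALL4 and DPPA4, were called lower in both pairs. Of 6 astrocyte markers 2 were tested and 1, GJA1, was called so. Of 8 mesenchymal markers 3 were tested and 1, COL1A1, was called so, where 6.17% of all tested genes were. GFAP had 1, 1, 1 and 0 reads, and AQP4, DCN and TWIST1 had 0 reads in all libraries. The part of these other cell types in the azacytidine result was not tested.

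**Figure D3:**
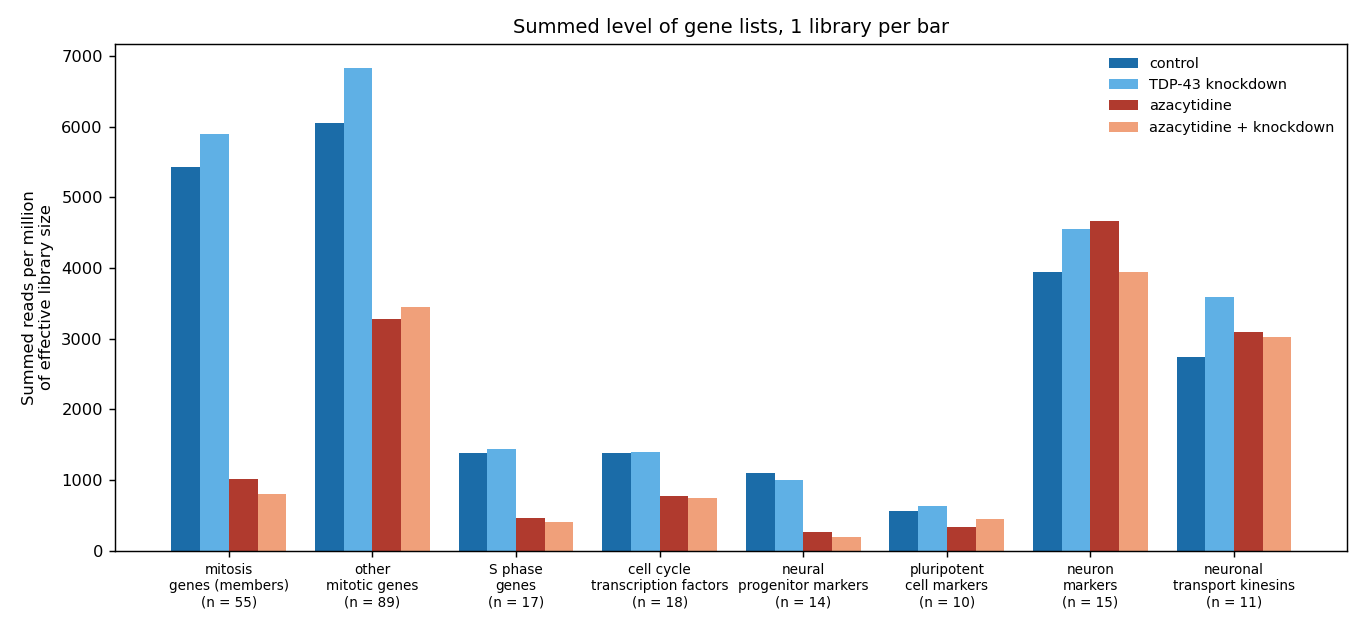
Summed CPM of effective library size (linear axis from 0) of the mitosis genes and 7 other gene lists, 1 bar per library and no error bars since each group is 1 library. The mitosis genes stand at 5433 and 5897 without azacytidine and at 1012 and 798 with it, while neuron markers stay between 3936 and 4668.

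Under TDP-43 knockdown 3 of 54 tested members (5.56%) were called in each pair, a share near that of all tested genes, 8.55% without azacytidine and 6.98% with it. Without azacytidine 1 of 54 tested members was called higher and 2 lower in the knockdown library than in the control, where 5.98% and 2.57% of all tested genes were. With azacytidine 1 was called higher and 2 lower, against 3.71% and 3.27%. CENPK was the only member called in the same direction in both knockdown pairs, of 54, where 0.305% of all tested genes were called lower in both and 0.776% in either direction. The members' median log2 knockdown ratio was 0.10 without azacytidine, beside 0.13 for all tested genes, and with total counts as the scale these were -0.12 and -0.09. With azacytidine it was -0.56, beside 0.03 for all tested genes, and -0.01 with counts under 3 reads raised to 3. The knockdown and azacytidine comparisons share libraries, and 0 members were called in opposite directions in the knockdown pairs (0.428% of all tested genes were).

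CENPK (ENSG00000123219.13, chromosome 5, 65517766 to 65563168, minus strand), a subunit of the inner kinetochore, had 85, 23, 21 and 2 reads in the gene table. Its knockdown log2 ratios were -2.01 (-2.76 to -1.35) without azacytidine and -3.08 (-6.50 to -1.33) with it, with adjusted p-values of 4.44e-09 and 0.00181 in the exact binomial test. The control library stood above the other 3, and the combined library was the lowest. The reads that the authors' program assigned to a transcript of CENPK behaved otherwise. They numbered 12, 17, 5 and 1, so that 73 of 85 reads in the control and 16 of 21 in the azacytidine library were assigned to the gene but to none of its transcripts, against 6 of 23 and 1 of 2 in the knockdown libraries. From transcript reads alone the knockdown log2 ratio was 0.39 without azacytidine (adjusted p 0.863, exact binomial test), in the opposite direction, and -1.71 with it (adjusted p 0.735). The share of control reads without a transcript, 85.9%, was the highest among the members, where NUF2 followed with 73.9% and the median was 23.4%. Without azacytidine the gene-level fall of CENPK therefore lay in reads with no transcript assignment. With azacytidine the reads with no assignment fell from 16 to 1 and those with one from 5 to 1. The sequences of the reads with no transcript assignment were not analysed here.

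**Figure D4:**
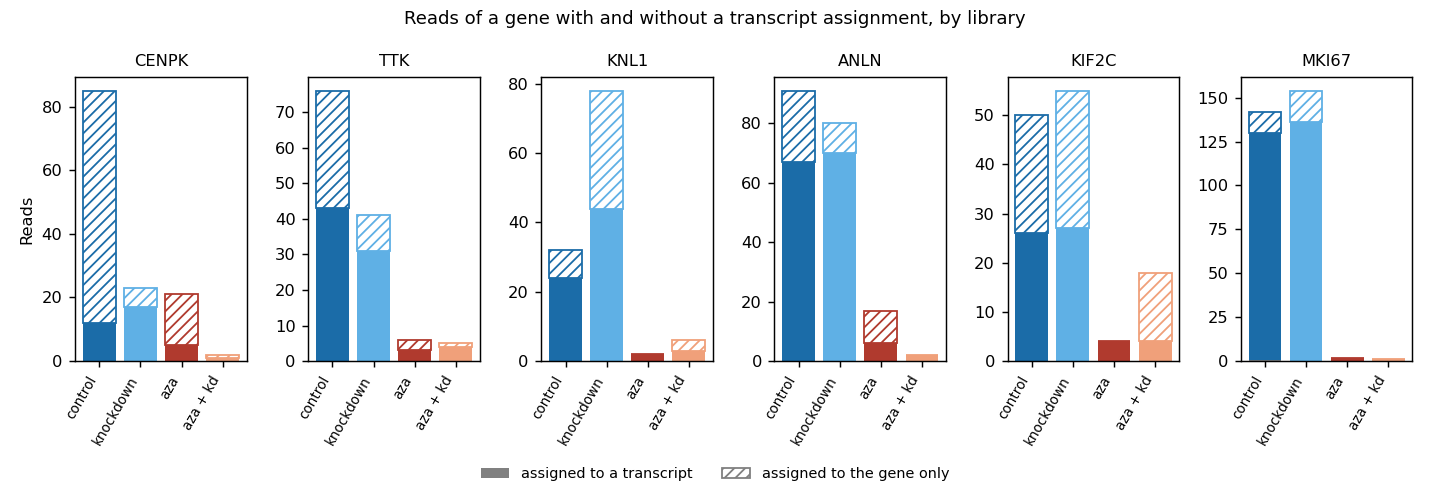
Reads of 6 mitosis genes in the 4 libraries, split into reads assigned to a transcript (filled) and reads assigned to the gene only (hatched), each panel with its own linear axis from 0 (aza, azacytidine; kd, knockdown). CENPK in the control has 73 of its 85 reads hatched, while its filled bars are 12, 17, 5 and 1, and MKI67 is filled for the most part in all libraries.

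The other members called under the knockdown were called in 1 pair each. KNL1 (ENSG00000137812.21, chromosome 15, 40594020 to 40664342, plus strand) rose from 32 control reads to 78 under the knockdown, a log2 ratio of 1.13 (0.53 to 1.78, adjusted p 0.00187, exact binomial test), and had 2 and 6 reads with azacytidine. With total counts as the scale its ratio was 0.91 (adjusted p 0.0217, exact binomial test), under 2-fold and so not called. TTK (ENSG00000112742.10, chromosome 6, 80003887 to 80042527, plus strand) fell from 76 to 41 reads without azacytidine, by 1.03 on the log2 scale (adjusted p 0.00283, exact binomial test), and had 6 and 5 reads with it. Of these reads, 24 and 44 were assigned to KNL1 transcripts and 43 and 31 to TTK transcripts in the control and knockdown libraries. In the pair with azacytidine ANLN (ENSG00000011426.11, chromosome 7, 36389821 to 36453791, plus strand) fell from 17 to 2 reads, a log2 ratio of -2.78 (-6.22 to -0.98, adjusted p 0.0119, exact binomial test), of which 6 and 2 had a transcript. KIF2C (ENSG00000142945.13, chromosome 1, 44689168 to 44767767, plus strand) rose from 4 to 18 reads there, a log2 ratio of 2.07 (0.60 to 4.22, adjusted p 0.0286, exact binomial test), while its transcript reads were 4 and 4. ARMH1, which overlaps KIF2C on the same strand, had 7, 4, 16 and 25 reads, and its part in the KIF2C reads was not tested. From transcript reads alone, 0 of 52 members were called in either knockdown pair, where 1.79% and 1.46% of all genes tested that way were.

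Other members with large knockdown ratios did not meet the call. ASPM (ENSG00000066279.19, chromosome 1, 197084121 to 197146694, minus strand) went from 90 control reads to 198 under the knockdown, a log2 ratio of 0.99 with an adjusted p of 1.18e-06 in the exact binomial test, just under 2-fold. CENPE (0.70), CENPN (0.75) and KIF14 (0.95) had positive log2 ratios in that pair, and CCNB2 (-1.65), SPC24 (-0.95) and AURKA (-0.93) negative ones. AURKA, CENPE and CENPN had adjusted p-values of 0.0117, 0.00882 and 0.0352 in the exact binomial test but were within 2-fold. With azacytidine the extreme log2 ratios rested on very few reads: KIF14 had 1 and 7 reads (2.35), ARHGAP11A 1 and 5 (1.90), CENPA 0 and 1, and CDK1 5 and 0. Ratios of 24 of the 54 members had opposite signs in the knockdown pairs. No such count was taken over all tested genes, so it is not a result about the members. At so few reads the sign can come from the scaling, as for INCENP with 6 and 6 reads under azacytidine (0.03).

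Shorter members had lower knockdown ratios. Across the 54 tested members the Spearman correlation of mean transcript length with the knockdown log2 ratio was 0.54 without azacytidine and 0.15 with it. Across 13554 tested genes with transcript reads it was 0.30 and 0.17. These are descriptions across genes, which share the same libraries and are not independent replicates. The 7 members under 2000 bases, CENPK and CCNB2 among them, had median log2 ratios of -0.51 and -0.82, and the 47 longer ones 0.14 and -0.50. Over all tested genes the medians were -0.21 and -0.28 below that length and 0.18 and 0.03 above it. The part of transcript length in the knockdown calls of CENPK, KNL1 and TTK was not tested.

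**Figure D5:**
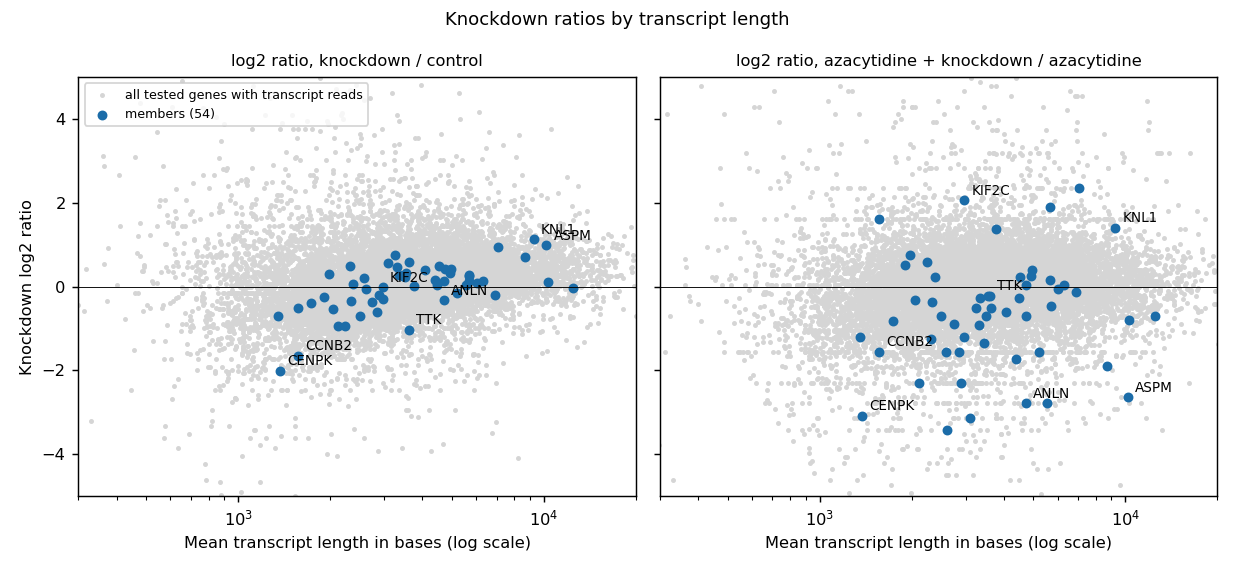
Log2 knockdown ratio against mean transcript length (log axis), without azacytidine (left) and with it (right), for all tested genes with transcript reads in grey and the 54 tested mitosis genes in blue. On the left the members tend to rise with length. Their lowest ratio there is CENPK at -2.01 and their highest KNL1 at 1.13, while MKI67, the longest, is at -0.03. On the right the points are spread more widely.

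The read quality of the mitosis genes also differed between the libraries. Of all their reads, 71.5%, 70.2%, 77.0% and 69.3% were assigned to a transcript, beside 63.9%, 58.5%, 68.1% and 60.4% of all reads. Full-length reads made up 21.4%, 18.6%, 40.1% and 35.4% of the members' transcript reads, beside 28.2%, 23.3%, 35.7% and 31.2% for all genes. MKI67, with transcripts of over 10 kilobases, had 0 full-length reads in every library. The members' reads were thus more often full-length in the azacytidine libraries, and the part of this difference in the azacytidine ratios was not tested. Unannotated transcripts, 25 in 18 of the genes, took 5.07%, 4.11%, 6.48% and 3.68% of the members' transcript reads. That with the most reads in the control library was a CDK1 transcript of 4152 bases, with 21 and 15 reads of the gene's transcript reads in the libraries without azacytidine and 0 in both others.

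Isoform shares of the members gave 0 calls shared by both pairs of either treatment. Fisher's exact test (two-sided) covered 15446 transcripts, of which 54 belonged to 25 members, and 1.12% of all transcripts were called in both azacytidine pairs and 0.725% in both knockdown pairs. In single pairs the members had 0 calls under azacytidine without the knockdown (5.79% of all transcripts), 2 with it (7.35%), 7 under the knockdown without azacytidine (7%) and 0 with it (4.43%). The azacytidine calls were both in SMC4, where ENST00000344722.5 had 25 of 118 transcript reads in the knockdown library and 10 of 12 in the combined library. The knockdown calls were in ECT2, KIF11, NUSAP1 and SMC4. For KIF11, ENST00000676757.1 went from 0 of 58 control reads to 23 of 68 under the knockdown, while ENST00000677720.1 went from 26 of 58 to 0 of 68. Another KIF11 transcript, ENST00000260731.5, was estimated at 26 reads in the control as well, the same number as ENST00000677720.1. It had 45 of 68 reads under the knockdown. ENST00000260731.5 and ENST00000677720.1 start at the same base, have 22 exons each and are 5016 and 5010 bases long. The part of read assignment between them in the fall to 0 was not tested. With uniquely assigned reads, 0 of the 20 member transcripts that could be tested were called in any pair, where between 0.574% and 1.66% of all transcripts tested that way were called in a pair.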

How the data were processed

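Alignment was to hg38 by minimap2, per the file headers, and the source field of the annotation deposited by the authors reads Bambu, which assigns long reads to genes and transcripts; versions and settings were not given in the sources used here. The deposited gene and transcript tables hold estimated counts. Further tables deposited by the authors hold counts of the reads that fit a unique transcript, and estimated counts restricted to full-length reads. Gene counts as deposited all lay within 0.00031 of an even number, and 0 unique counts were odd, so all counts were divided by 2 and rounded to reads. The labels do not say why they are even.

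Groups came from the treatment labels. The 13789 genes that averaged 5 or more reads were compared within each library pair by an exact binomial test (two-sided) at the TMM effective library sizes (edgeR 4.0.16, R 4.3.3; scipy 1.17.1), with Benjamini-Hochberg adjustment over all of them. The tests were designed for 1 count per read. A call required an adjusted p under 0.05 and a log2 ratio (pseudocount 0.5) of at least 1 in size. For transcripts Fisher's exact test (two-sided) was used in genes with a mean of at least 20 transcript reads, with at least 10 reads per transcript and a change of at least 10 percentage points. The additive models of edgeR and DESeq2 1.42.0 are alternatives. The tests were checked on simulated counts with counting error only, so that check does not cover variation between libraries or amplified reads. Ratios carry exact 95% intervals (Clopper-Pearson), and 0 reads allow up to 3. Both describe counting error only, because amplified reads are not independent molecules.

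The members and the gene lists were chosen with earlier results of these data known. Values in each library are given for members called in a pair, for MKI67, TOP2A, CDK1 and CENPK, and for the 5 highest and 5 lowest ratios of each comparison; of other lists, for defining markers and up to 5 genes called in both pairs in each direction. MAP2, DCX, LIN28A, PCNA, CDKN1A, NES, SOX2, KIF1A, KIF5A, ARMH1 and ARHGAP11A-DT were named after their values were seen. Promoters shown are those of members with the largest ratios shared by both pairs that hold TTTGAA, and of 2 members not called in both pairs.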

Additional observations from a re-analysis of the deposited data

Results flagged for a closer look

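ASPM, the spindle pole gene, had knockdown ratios on opposite sides of 0 in the cultures without and with azacytidine. Without azacytidine its reads went from 90 to 198 under the knockdown, a log2 ratio of 0.99 with a 95% exact interval of 0.63 to 1.37. With azacytidine they went from 9 to 1, a log2 ratio of -2.64 with an interval of -8.60 to -0.29. The difference between the ratios was not tested, and the intervals cover counting error only.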

How the results depend on the processing

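No paired analysis was possible because all 4 libraries carry replicate number 1, so that the number pairs none of them; the additive models below fit each treatment within the other. Leaving out a library leaves no pair. The azacytidine calls of 49 and 48 members numbered 4 and 11 with full-length reads, where 27 members could be tested and the share of all genes called was 1.43% and 2.63% in place of 16.6% and 25.5%. The first numbered 28 of 42 tested members with uniquely assigned reads, where 5.74% of all genes were called. The 47 members called lower in both azacytidine pairs numbered 3 with full-length and 26 with uniquely assigned reads, 42 in edgeR's additive model and 21 in that of DESeq2. Of all tested genes, 1193 of 13789 were called in both azacytidine pairs in either direction. They numbered 44 of 6627 with full-length reads, 279 of 9341 with uniquely assigned reads and 203 of 13789 in the DESeq2 model. Fewer reads and members enter the tests of full-length and unique reads by construction, and the cause of the lower DESeq2 count was not tested. All other alternatives left these azacytidine counts within 1.5 times. Under the knockdown without azacytidine, 3 calls (1 higher, 2 lower) became 5 with total counts (0 higher, 5 lower, 2 of them shared with the 3, KNL1 lost), 6 with DESeq2 size factors, 7 with a 1.5-fold threshold, 1 with a 4-fold threshold and 5 with TMM over the tested genes, the last chosen after seeing the data. These scalings moved the median of all tested genes in that pair from 0.13 to -0.09, 0.03 and 0.03, and that of the members from 0.10 to -0.12, 0.00 and -0.01. Without azacytidine the knockdown calls over all 13789 tested genes went from 1179 to 1091, 1100, 1859, 422 and 1079 under those settings, in the same order. With azacytidine the 3 knockdown calls became 12 with counts not halved, where those of all tested genes went from 962 to 2130. Sums of transcript estimated counts, of full-length and of unique reads gave 0 calls in each knockdown pair and 0 in both. CENPK, KNL1 and TTK missed the read minimum with full-length and with unique reads, so they could not be called there. The additive models of edgeR and DESeq2 gave 0 against the 1 call of CENPK. Over all 13789 tested genes these models called only 0 and 10 under the knockdown, so their 0 does not bear on CENPK alone. Counts not halved gave 2 azacytidine calls of isoform share in both pairs against 0, beside 682 of 15338 transcripts in all against 173 of 15446. Reversed directions were those of CENPK under the knockdown without azacytidine (0.39 from transcript estimated counts) and of CKAP2 under azacytidine without the knockdown (0.37 from uniquely assigned reads); the causes were not tested. With 500 and 387 member reads left in the azacytidine libraries, small knockdown differences there were not detectable at this depth.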
